A study of Mus musculus with 18 samples.

Results

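The 10 genes described here, H19, Igf2, Igf2r, Peg3, Mest, Dlk1, Cdkn1c, Plagl1, Grb10 and Ndn, are imprinted genes known for their part in growth. They were chosen by name, as every probe whose gene symbol in the array annotation was one of these symbols. The rule uses no measured value, but the 10 names were picked with earlier results of these data known. They had 21 probes among the 45281 of the array, which carries 30869 gene symbols. An imprinted gene is transcribed mainly from the copy inherited from one parent, as set by DNA methylation laid down in the germ line at a control region that often serves several neighbouring genes. In embryonic growth, paternally expressed genes such as Igf2, Peg3 and Dlk1 tend to promote growth, and maternally expressed genes such as H19, Igf2r and Cdkn1c tend to restrain it. Many of them are abundant in mesoderm and in young muscle, and several, Ndn and Peg3 among them, are also known from neurons. Arrays measure the RNA of both parental copies together, so nothing below bears on which copy was read.

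The cells were D3 mouse embryonic stem cells (ESD3, strain 129s2/SvPas), grown on primary mouse embryo fibroblast feeders. They were transduced with a vector that the labels call a retrovirus and the methods a lentivirus, and selected with puromycin. It carried a short hairpin RNA against luciferase (control) or HPRT, designed on the human gene (HPRT knockdown). HPRT is the purine salvage enzyme whose loss causes Lesch-Nyhan disease, and the study asked how its lack alters the differentiation of stem cells toward dopaminergic neurons. RNA was taken at the ES stage, from spherical neural masses (SNM, the neural precursor stage) and at the neuronal stage, in both cell types. Each of the 6 conditions was 1 pool of RNA hybridised to 3 arrays. The p-values below therefore cover the error of the array measurement, not that between cultures, and an exact permutation test of 3 arrays against 3 cannot go below a p of 0.1.

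Signals are given on the log2 scale after background correction and normalization. A probe was tested where at least 1 of the conditions compared had a detection p under 0.05 on each of its 3 arrays. It was called higher or lower at an adjusted p under 0.05 over all tested probes and a change of at least 1.5-fold. The arrays detected 18827 to 22202 probes, and arrays of 1 condition correlated at 0.992 to 0.997 over all probes. Hprt1, the targeted gene, was at 12.04, 12.07 and 12 on the control ES arrays and at 8.14, 7.96 and 7.75 on the knockdown ES arrays. At the SNM stage it was at 11.23, 11.23 and 11.13 in control and at 9.34, 9.47 and 9.5 in knockdown cells, and at the neuronal stage at 11.08, 11.03 and 11.03 against 6.56, 6.64 and 6.60. The knockdown arrays lay below the control arrays at every stage, by 17-fold in ES, 3.39-fold in SNM and 21.8-fold in neuronal cells. The knockdown was thus weakest in the SNM, where the knockdown mean of 9.44 lay above those of 7.95 in ES and 6.60 in neuronal cells.

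Of the 21 probes, 16 were detected on all 3 arrays of at least 1 condition, and they stood for 9 of the 10 genes. The gene left out was Plagl1, a zinc finger protein that restrains cell growth, whose brightest probe was detected on 1 of 18 arrays and lay between 4.33 and 4.87. Each gene is given by its brightest probe over all arrays, and values of the other probes are added where a call or a size differs most. The brightest probes of the 9 genes were detected on all 18 arrays.

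The sequence around the start of transcription and the miRNAs that 3 of the genes hold are shown first. The windows were taken at the starts of transcripts, not by the position of the control regions of imprinting. RefSeq on GRCm38.p6 gave 14 promoter windows for 8 of the genes and none for H19 and Cdkn1c. Each window runs over 300 bases, of which 250 lie before the start. The median window of all 32851 in the table held 7 CpG dinucleotides, and 12 of the 14 windows of these genes held more. Given below are the bases before the start of Igf2, which had the largest change at the SNM stage, and of Dlk1 and Mest, which had the largest at the neuronal stage, each on the strand of its gene. For Igf2 and Mest, which have several windows, one that holds a match is shown. Capitals mark matches on either strand to the hexamer TGCCGC, which ZFP57 binds when methylated, or to GGNGGCAG, part of the core that CTCF binds.
Igf2, chr7:142658805-142659054, minus strand: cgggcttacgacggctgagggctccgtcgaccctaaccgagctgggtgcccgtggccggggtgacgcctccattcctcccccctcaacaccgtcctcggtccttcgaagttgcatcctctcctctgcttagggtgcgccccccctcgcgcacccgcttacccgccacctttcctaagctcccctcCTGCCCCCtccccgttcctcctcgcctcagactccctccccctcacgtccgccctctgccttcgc
Mest, chr6:30737800-30738049, plus strand: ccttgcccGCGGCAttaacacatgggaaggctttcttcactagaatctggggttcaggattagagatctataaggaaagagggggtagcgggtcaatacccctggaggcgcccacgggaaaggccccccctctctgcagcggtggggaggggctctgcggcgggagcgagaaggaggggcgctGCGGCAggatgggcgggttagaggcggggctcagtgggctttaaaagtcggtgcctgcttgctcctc
Dlk1, chr12:109452573-109452822, plus strand: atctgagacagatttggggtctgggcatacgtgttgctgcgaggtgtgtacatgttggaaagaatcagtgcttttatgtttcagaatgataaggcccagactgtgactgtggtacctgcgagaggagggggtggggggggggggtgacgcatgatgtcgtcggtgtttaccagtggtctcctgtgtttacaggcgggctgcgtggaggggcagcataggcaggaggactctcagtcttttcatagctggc
Counted from the start of transcription, the hexamer begins at -242 and -67 in the Mest window, and GGNGGCAG at -65 in the Igf2 window. Of the 14 windows, 5 held TGCCGC, as did 11.6% of all promoter windows, and these include a pair of Mest windows that overlap almost fully. GGNGGCAG was in 2 of the 14 and in 12.6% of all, and in the Grb10 window its match overlaps one to TGCCGC. The E-box CAGCTG was in 1 of the 14 and in 16.3% of all. The YY1 motif AAGATGGC (2.75% of all windows) and the TATA box TATAAA (13.6%) were in none of the 14. These matches describe letters only.

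Within H19, Igf2 and Mest lie 6 mature miRNAs in RefSeq, shown with the seed (bases 2 to 8) in capitals.
mmu-miR-675-5p, in H19: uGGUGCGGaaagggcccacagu
mmu-miR-675-3p, in H19: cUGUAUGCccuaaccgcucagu
mmu-miR-483-5p, in Igf2: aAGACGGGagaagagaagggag
mmu-miR-483-3p, in Igf2: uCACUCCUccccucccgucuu
mmu-miR-335-5p, in Mest: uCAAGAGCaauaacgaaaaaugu
mmu-miR-335-3p, in Mest: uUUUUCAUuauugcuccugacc
The 6 seeds are all distinct, so none of these miRNAs shares its seed with another. The signals below are those of the host genes, and the miRNAs themselves were not measured on these arrays.

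Knockdown cells differed little from control cells in these genes at the ES stage, had more of 4 of them at the SNM stage, and less of 6 at the neuronal stage. No member was called at the ES stage, where 0.516% of 18411 tested probes were called higher and 1.17% lower, and the median change of the 9 genes was -0.11 against 0.01 over all tested probes. Over all probes, 4761 passed an unadjusted p of 0.05 in limma, and the t-test of the methods called none of the members either. At the SNM stage Igf2, Peg3, Grb10 and Dlk1 were higher and Cdkn1c was lower in knockdown cells. These 4 higher and 1 lower of 9 stand beside 11% and 8.90% of 20765 tested probes, and the median of the 9 was 0.45 against -0.04. At the neuronal stage Dlk1, Mest, Peg3, Igf2, Grb10 and Ndn were lower and none was higher, 6 of 9 where 13.5% of 20893 probes were called lower and 13.9% higher. The median of the 9 was -1.07 against 0.01 over all tested probes. Without regard to size, control and knockdown arrays did not overlap for 5 of the 9 genes in ES cells, for 8 in the SNM and for all 9 in neuronal cells. Over all tested probes this was so for 31.6%, 56.1% and 62.8%.

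**Figure D1:**
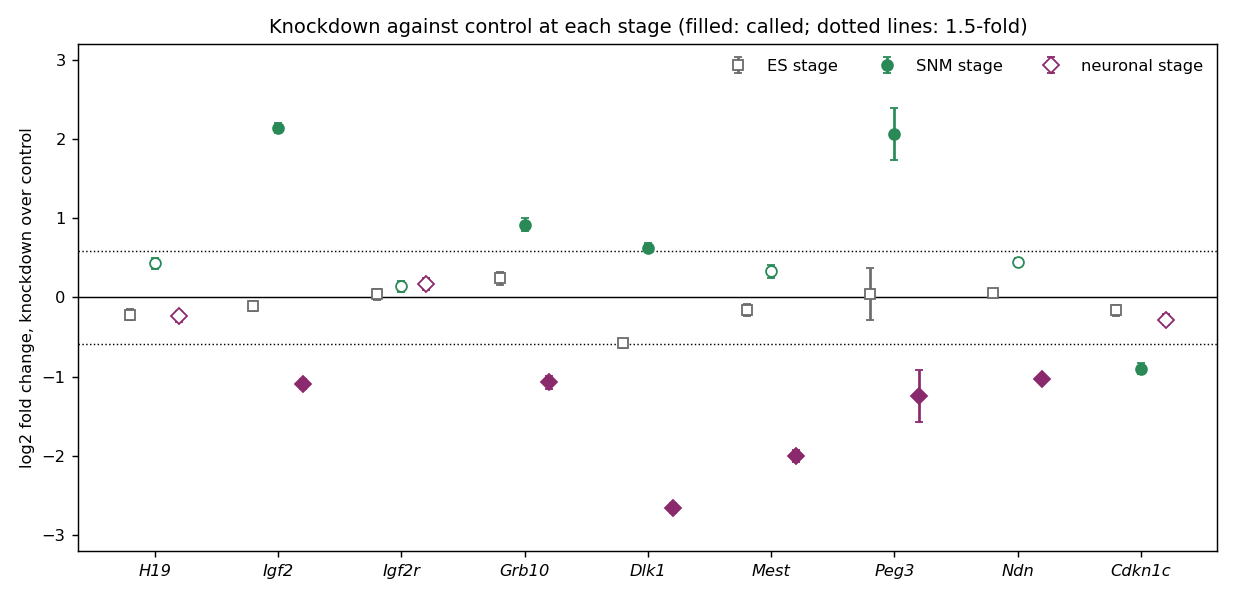
Change in log2 signal of the brightest probe of each gene in HPRT knockdown against control cells, by stage, with the standard error of the limma fit. The values lie between -0.58 and 0.24 at the ES stage, reach 2.14 for Igf2 at the SNM stage and -2.66 for Dlk1 at the neuronal stage.

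The change between stages of the knockdown effect was tested as well. From the ES to the SNM stage the effect shifted upward for Igf2, Peg3, Dlk1, Grb10 and H19 and downward for Cdkn1c, 5 and 1 of 9 genes where 11.7% and 9.61% of 22125 probes were called. From the SNM to the neuronal stage it shifted downward for Peg3, Dlk1, Igf2, Mest, Grb10, Ndn and H19 and upward for Cdkn1c. These 7 and 1 of 9 stand beside 14.8% and 13.7% of 22160 probes, and the median shift was -1.99 against 0.06 over all tested probes. The SNM arrays enter both shifts, so the 2 are not independent of each other. Hprt1 itself was lowered least in the SNM (3.39-fold), and the part of this in the shifts was not tested.

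Markers of other cell types differed between the same arrays, most of all at the neuronal stage. The summed linear signal of 14 skeletal muscle markers was 79969 to 81607 on the control neuronal arrays, where all 14 were detected, and 484 to 605 on the knockdown neuronal arrays, where 5 were. Myod1, Myog, Myf5, Myf6, Ckm and Tnnt3 were detected on none of these knockdown arrays, and 13 of the 14 markers were called lower. The sum of 12 fibroblast and mesenchyme markers was 24675 to 28168 against 13596 to 16946, with all 12 detected in both and 8 called lower. Oligodendrocyte markers ran the other way, with all 9 called higher and sums of 10372 to 10648 against 69840 to 73664. The 7 neuron markers on the array summed to 6991 to 7619 in control and 1162 to 1187 in knockdown cells, with 4 of 5 tested called lower. Snap25 and Nefl were detected on no array of any of the 6 conditions. From the SNM to the neuronal stage 3 of 5 tested neuron markers were called higher in control cells and none lower. In knockdown cells 4 of 4 tested were called lower over that step. The paper reports tyrosine hydroxylase and beta-III tubulin protein in both cell types at the final stage. How far the label of this stage holds was not tested here. Tubb3 was detected on no knockdown neuronal array and was not among those called. At the SNM stage muscle markers summed to 1999 to 2119 in control and 4153 to 4347 in knockdown cells, with Myf5 and Ckm detected on no array and 9 of 11 tested called higher. Fibroblast markers summed to 7396 to 7990 and 8320 to 10092 there, and astrocyte and radial glia markers to 6495 to 7434 and 11559 to 12080. Endoderm markers summed to 354 to 371 in control and 782 to 845 in knockdown SNM cells, with 4 of 6 tested called higher. Afp, Gata4 and Apoa2 were detected on no SNM array. Oligodendrocyte markers were lower in knockdown SNM cells (14505 to 15071 against 11224 to 12133, 5 of 8 called), as were pluripotency markers (4440 to 4771 against 2942 to 3057, 4 of 6 called). The endoderm sums were 3208 to 3365 against 2516 to 2696 in ES and 422 to 444 against 935 to 984 in neuronal cells. In ES cells none of these markers was called lower and 1 of 5 tested, Amn, was called higher, and in neuronal cells 5 of 6 were. In ES cells the muscle sums overlapped, at 1706 to 1876 and 1666 to 1896. The part of these cell types in the results below was not tested, and in pools of RNA fewer cells of a type cannot be told apart from less RNA per cell.

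**Figure D2:**
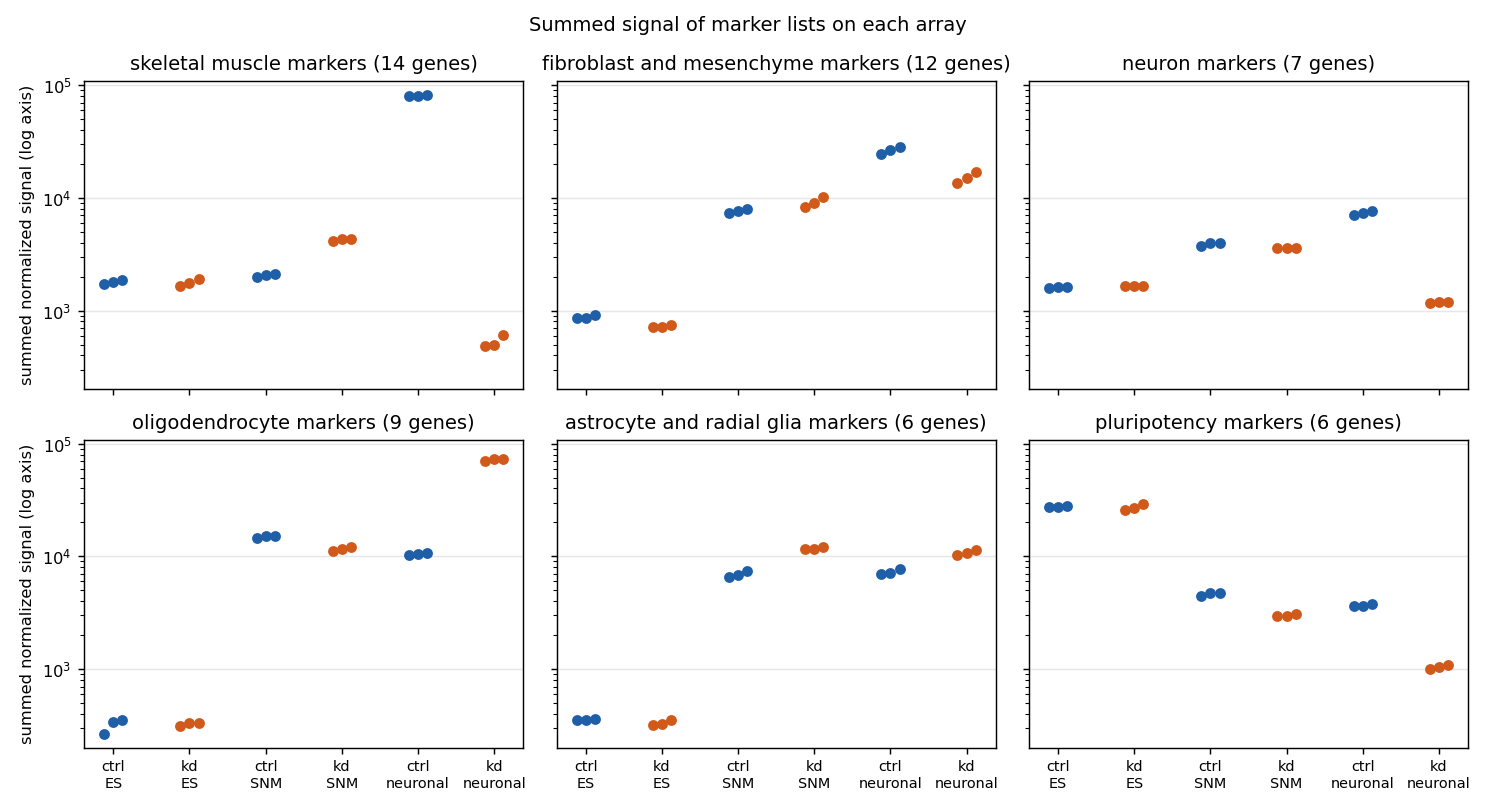
Summed linear normalized signal of marker lists of several cell types on each array (log axis), by condition. The median neuronal array of muscle markers lies at 80566 in control and 490 in knockdown cells, and that of oligodendrocyte markers at 10448 and 72416.

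Igf2 encodes the insulin-like growth factor that drives fetal growth, and it was the gene most raised by the knockdown at the SNM stage. In ES cells it was at 8.74, 8.81 and 8.83 in control and at 8.82, 8.58 and 8.64 in knockdown cells. At the SNM stage the values were 11.91, 11.97 and 11.91 in control and 14.04, 14.14 and 14.04 in knockdown cells, and at the neuronal stage 14.55, 14.57 and 14.55 against 13.49, 13.50 and 13.41. The ES arrays overlap, while the knockdown arrays lie above all control arrays in the SNM and below them all at the neuronal stage. Igf2 was 4.41-fold higher in knockdown SNM (log2 change 2.14 ± 0.06 SE, adjusted p = 2.08e-13) and 2.13-fold lower in knockdown neuronal cells (-1.09 ± 0.06, adjusted p = 2e-10). At the ES stage the change was -0.11 ± 0.06 (adjusted p = 0.267). The shift of the effect was 2.25 ± 0.09 from ES to SNM (adjusted p = 1.96e-11) and -3.23 ± 0.09 from SNM to neuronal stage (adjusted p = 3.06e-14).

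In control cells Igf2 rose 8.78-fold from the ES to the SNM stage and 6.19-fold from there to the neuronal stage. Knockdown cells gained 41.9-fold over the first step and lost 1.52-fold over the second, a loss that was no longer called without array 2 of knockdown SNM or array 3 of knockdown neuronal cells (-0.57 in both cases). Control neuronal cells had the highest level, followed by knockdown SNM, knockdown neuronal and control SNM cells, each apart from the next, and the ES conditions did not differ beyond their spread. On the control neuronal arrays the Igf2 probe reached 87.1 to 88.5% of the brightest signal of the array, so the scale leaves little room above it.

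H19, the long noncoding RNA that lies next to Igf2 and shares its control region, also rose from the ES to the SNM stage, with smaller effects of the knockdown than Igf2 showed at the SNM and neuronal stages. It was at 10.49, 10.49 and 10.55 in control ES and 10.38, 10.25 and 10.25 in knockdown ES cells. SNM arrays read 13.83, 13.79 and 13.70 in control and 14.28, 14.27 and 14.05 in knockdown cells, and neuronal arrays 14.48, 14.62 and 14.52 against 14.30, 14.29 and 14.30. Control and knockdown arrays were apart at every stage, but each difference was under 1.5-fold at this probe. The changes were -0.22 ± 0.07 at the ES stage (adjusted p = 0.0478), 0.43 ± 0.07 in the SNM (adjusted p = 5.36e-05) and -0.24 ± 0.07 at the neuronal stage (adjusted p = 0.00533). A second probe, with means of 14.46 and 13.65 at the neuronal stage, was called lower there (-0.81), and the brighter probe stood at 84 to 91% of the brightest signal on the control neuronal arrays. The difference of the effect between stages was called, at 0.64 from ES to SNM and -0.67 from SNM to neuronal stage. With scaling to the 75th percentile these were 0.41 and -0.55 and below 1.5-fold. From the ES to the SNM stage H19 rose 9.6-fold in control and 15-fold in knockdown cells. From there control cells rose a further 1.7-fold, while the knockdown change of 0.10 did not pass the test (adjusted p = 0.222). The second H19 probe gave 2.99-fold over that step in control cells and a change of 0.28 in knockdown cells, which had an adjusted p of 0.00124 and was under 1.5-fold. Its difference of the effect from SNM to neuronal stage was -1.30.

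Igf2r, the receptor that clears IGF2 from the cell surface, was the gene least touched by the knockdown. Its arrays read 8.17, 8.19 and 8.22 in control and 8.16, 8.22 and 8.31 in knockdown ES cells, and 7.40, 7.63 and 7.59 against 7.60, 7.82 and 7.61 in the SNM. At the neuronal stage they read 6.60, 6.71 and 6.66 in control and 6.77, 6.86 and 6.84 in knockdown cells. Control and knockdown arrays overlapped at the ES and SNM stages and not at the neuronal stage. No difference passed the test at the ES stage (0.04, adjusted p = 0.803), in the SNM (0.14, adjusted p = 0.12) or at the neuronal stage (0.17, adjusted p = 0.0552), and the second probe of the gene was called in none of these either. By stage the level of Igf2r fell in control cells, unlike that of its ligand, by 0.65 and then by 0.88 on the log2 scale. In knockdown cells it fell by 0.85 over the second step, where Igf2 fell as well (-0.60). The first step of knockdown cells, -0.55, was under 1.5-fold, but passed without array 1 of knockdown ES or array 2 of knockdown SNM cells (-0.59 and -0.62), and was called at the second Igf2r probe (-0.59). The first step of control cells was not called under 3 other normalizations (-0.57 to -0.51) or without array 1 of control SNM cells (-0.58).

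Grb10, an adaptor protein that dampens signalling from the insulin and IGF receptors, went up in knockdown SNM and down in knockdown neuronal cells. It was at 7.66, 7.70 and 7.71 in control ES and 7.94, 8.02 and 7.84 in knockdown ES cells. The SNM values were 6.99, 6.92 and 6.94 against 7.78, 7.93 and 7.91, and the neuronal values 7.04, 7.21 and 7.18 against 6.24, 6.03 and 5.94. Knockdown arrays were thus the higher ones at the ES and SNM stages and the lower ones at the neuronal stage, with no overlap. The changes were 0.24 ± 0.08 (adjusted p = 0.0491, under 1.5-fold), 0.92 ± 0.08 (1.89-fold, adjusted p = 5.81e-08) and -1.07 ± 0.08 (2.1-fold lower, adjusted p = 4.29e-09). The other 2 probes of Grb10 lay near or below background, and the mean of all 3 gave 0.26 and -0.37 at the SNM and neuronal stages, which was not called. The array lists no accession for the Grb10 probes, so they rest on the symbol alone. In control cells Grb10 fell by 0.74 from the ES to the SNM stage, where knockdown cells changed by -0.06, and knockdown cells then fell by 1.80 to the neuronal stage, where control cells changed by 0.19. The effect of the knockdown shifted by 0.68 and then by -1.99 between the stages. The shift of 0.68 was not called with quantile normalization alone (0.51), 75th percentile scaling (0.47), an offset of 50 (0.55) or the mean of all probes (0.18, adjusted p = 0.0604). The control fall of 0.74 was not called under the first 2 of these settings (-0.56 and -0.53) or in the mean of all probes (-0.31), nor was the knockdown fall of 1.80 in that mean (-0.56).

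**Figure D3:**
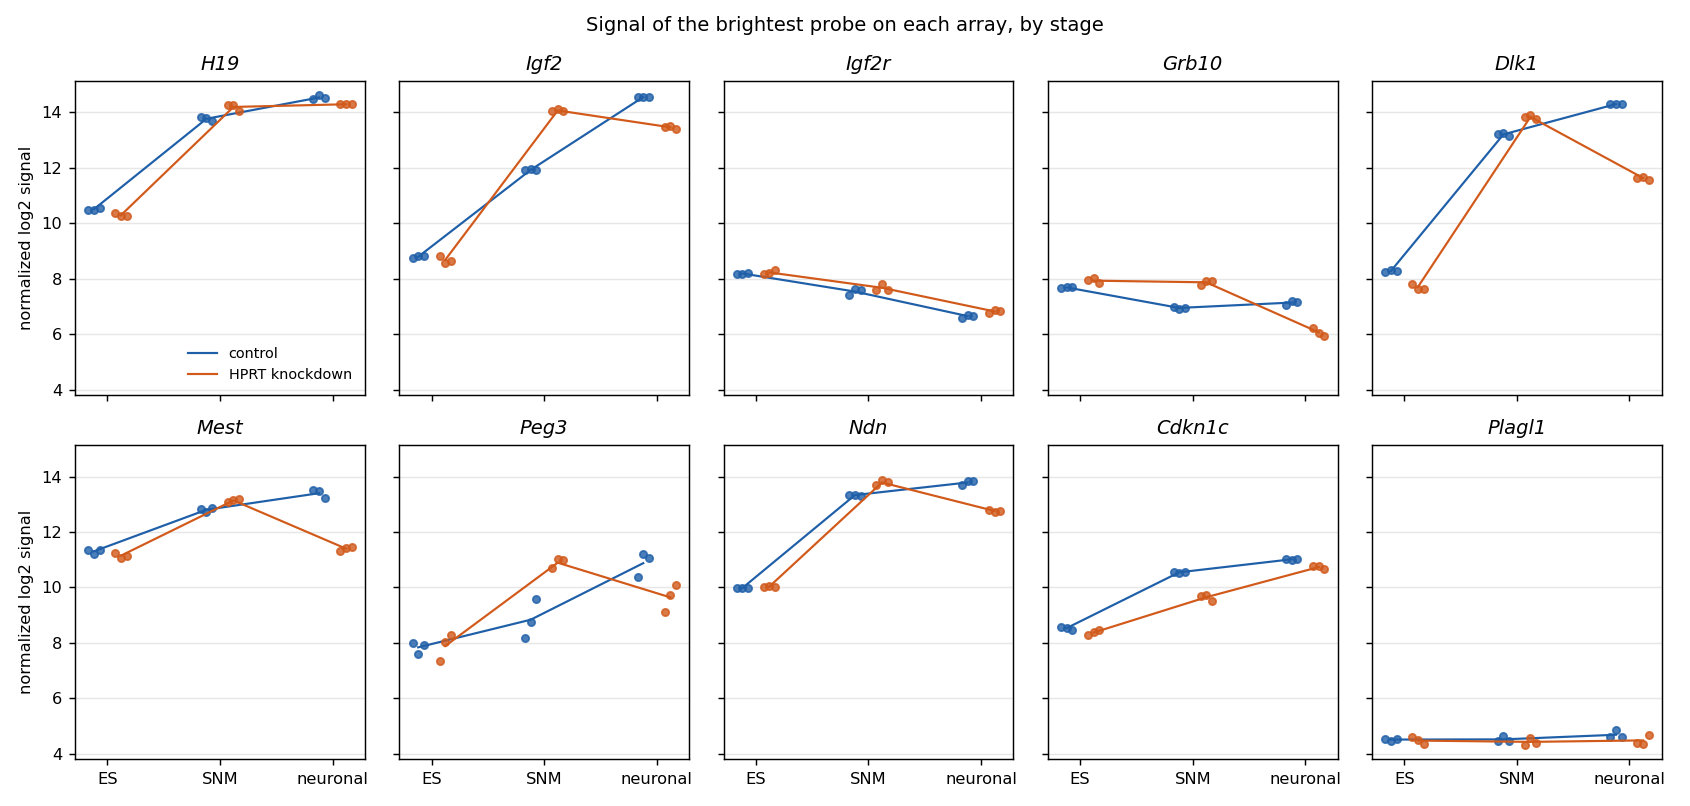
Log2 normalized signal of the brightest probe of each gene on the 18 arrays, 3 for each condition, by stage and for each cell type. Knockdown arrays of Igf2 lie at 14.04 to 14.14 in the SNM and at 13.41 to 13.50 at the neuronal stage, above and then below the control arrays.

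Dlk1, a membrane protein that keeps preadipocytes and other precursors from differentiating, had the widest range of these genes, 6.60 on the log2 scale or 96.8-fold between the means of the lowest and the highest condition. It was at 8.24, 8.31 and 8.29 in control ES and 7.82, 7.64 and 7.65 in knockdown ES cells. In the SNM it was at 13.22, 13.25 and 13.16 against 13.85, 13.90 and 13.77, and at the neuronal stage at 14.30, 14.30 and 14.31 against 11.64, 11.69 and 11.58. The groups did not overlap at any stage, and the knockdown arrays were the lower ones at the ES and neuronal stages. The largest effect of the knockdown on any of the 9 genes was that on Dlk1 at the neuronal stage, 6.33-fold lower (-2.66 ± 0.06, adjusted p = 1.31e-15), and its second probe gave -3.50 (11.3-fold lower). In the SNM it was 1.54-fold higher (0.63 ± 0.06, adjusted p = 1.91e-07), which was not called with scaling to the 75th percentile (0.38). In ES cells it was 1.49-fold lower (-0.58 ± 0.06, adjusted p = 1.72e-05), just under the fold required, and was called without array 1 of control or of knockdown ES cells (-0.59 and -0.63). The second Dlk1 probe gave -0.28 there (adjusted p = 0.181). Fibroblast markers, which the feeder cells express, summed to 851 to 921 in control and 712 to 748 in knockdown ES cells, and none of 6 tested was called. Col1a1, Lum, Postn, Pdgfrb and Fap were detected on no ES array. The part of feeder cells in the Dlk1 difference was not tested.

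Dlk1 rose 30.5-fold from ES to SNM in control and 70.2-fold in knockdown cells. Over the next step control cells rose 2.13-fold and knockdown cells fell 4.59-fold, or 7.61-fold at the second probe. The shift in the effect of the knockdown was 1.2 from ES to SNM and -3.29 ± 0.08 from SNM to neuronal stage (adjusted p = 1.33e-14, second probe -4.22). The 6 conditions were all apart from their neighbours in the order of levels.

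Mest, a hydrolase-like protein expressed from the paternal copy in mesoderm, was affected mainly at the neuronal stage. It was at 11.36, 11.21 and 11.34 in control and 11.24, 11.08 and 11.12 in knockdown ES cells, and at 12.83, 12.71 and 12.87 against 13.08, 13.15 and 13.19 in the SNM. The neuronal arrays read 13.51, 13.47 and 13.22 in control and 11.32, 11.41 and 11.47 in knockdown cells. Knockdown neuronal cells were thus close to the ES arrays, and their mean differed from that of control ES cells by 0.10 (adjusted p = 0.247). Mest was 4-fold lower in knockdown neuronal cells (-2 ± 0.08, adjusted p = 2.58e-12), and its 3 probes ranged from -2.43 to -2. In the SNM the change of 0.33 ± 0.08 (adjusted p = 0.00212) was under 1.5-fold, and the ES change of -0.16 had an adjusted p of 0.234. Mest rose 2.84-fold from ES to SNM in control and 3.98-fold in knockdown cells. Control cells rose 1.51-fold to the neuronal stage, a call that was lost without array 1 or 2 of control neuronal or array 2 of control SNM cells (0.54 to 0.56) and with scaling to the 75th percentile (0.41). In knockdown cells it fell 3.34-fold over that step.

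Peg3, a zinc finger protein of the paternal copy with roles in growth and maternal behaviour, was called in the same directions as Igf2 at the SNM and neuronal stages, with a wider spread between arrays. The ES arrays read 8.01, 7.59 and 7.92 in control and 7.33, 8.04 and 8.29 in knockdown cells. SNM arrays read 8.18, 8.74 and 9.59 against 10.69, 11.01 and 10.98, and neuronal arrays 10.36, 11.20 and 11.07 against 9.13, 9.72 and 10.08. The control SNM arrays alone had an SD of 0.71, but knockdown arrays lay above all of them in the SNM and below all control arrays at the neuronal stage. Peg3 was 4.18-fold higher in knockdown SNM (2.06 ± 0.33, adjusted p = 8.07e-05) and 2.36-fold lower in knockdown neuronal cells (-1.24 ± 0.33, adjusted p = 0.00461). A second Peg3 probe was called at both stages as well (1.66 and -1.09), but its control and knockdown arrays overlapped at the neuronal stage. The neuronal call of the brighter probe was lost with the methods' t-test after Benjamini-Hochberg adjustment, a test that takes the spread of each probe alone. At the ES stage the change was 0.04 ± 0.33 (adjusted p = 0.956) and changed sign without array 2 of control ES or array 2 or 3 of knockdown ES cells (-0.08, -0.03 and -0.16). Its rise from ES to SNM was 8.06-fold in knockdown cells and 1.99-fold in control cells (adjusted p = 0.0134). The latter was lost without array 2 of control ES (0.87, adjusted p = 0.0512) or array 3 of control SNM cells (0.61, adjusted p = 0.0911), in the mean of all probes (0.55) and with the methods' t-test. From SNM to neuronal stage Peg3 rose 4.13-fold in control and fell by 1.25 on the log2 scale in knockdown cells.

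Ndn, a MAGE family protein that promotes exit from the cell cycle in neurons, was the steadiest of these genes between arrays of a condition. All 3 control ES arrays read 9.98, and the knockdown ES arrays 10.01, 10.07 and 10.02. The SNM values were 13.35, 13.34 and 13.31 against 13.70, 13.87 and 13.79, and the neuronal values 13.70, 13.83 and 13.83 against 12.78, 12.74 and 12.76. Knockdown arrays lay above control arrays at the ES and SNM stages and below them at the neuronal stage. Ndn was 2.04-fold lower in knockdown neuronal cells (-1.03 ± 0.05, adjusted p = 7.22e-11), while the changes at the ES stage (0.06, adjusted p = 0.563) and in the SNM (0.45 ± 0.05, adjusted p = 2.54e-06) were under 1.5-fold. It rose 10.2-fold from ES to SNM in control and 13.5-fold in knockdown cells. The knockdown cells then fell by 1.02 on the log2 scale, where control cells changed by 0.46, which was under 1.5-fold.

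Cdkn1c, the cyclin-dependent kinase inhibitor p57, was the one gene among the 9 called lower in knockdown SNM cells. It was at 8.57, 8.55 and 8.48 in control and 8.27, 8.40 and 8.45 in knockdown ES cells. In the SNM it was at 10.56, 10.52 and 10.56 against 9.70, 9.74 and 9.5, and at the neuronal stage at 11.02, 11 and 11.03 against 10.77, 10.79 and 10.65. Its knockdown arrays lay below its control arrays at all 3 stages. The change was -0.90 ± 0.07 in the SNM (1.87-fold lower, adjusted p = 1.5e-08), and it was under 1.5-fold at the neuronal stage (-0.28, adjusted p = 0.00161) and at the ES stage (-0.16, adjusted p = 0.136). Cdkn1c rose 4.04-fold from ES to SNM in control and 2.42-fold in knockdown cells. Knockdown cells then rose 2.13-fold to the neuronal stage, where control cells changed by 0.47, under 1.5-fold. The effect of the knockdown shifted by -0.74 from ES to SNM and by 0.62 from SNM to neuronal stage, and the second was not called without array 3 of knockdown SNM cells (0.55).

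The course over the stages was called for most of these genes. From the ES to the SNM stage 7 of the 9 were called higher in control cells, all but Igf2r and Grb10, which were called lower, where 23.7% and 25.4% of 20703 tested probes were called. In knockdown cells the same 7 were higher and none lower, beside 26.4% and 30.9% of 21467 probes. The medians of the 9 were 2.01 and 3.01, against -0.08 and -0.11 over all tested probes. From the SNM to the neuronal stage the cell types parted. In control cells 5 were higher and 1, Igf2r, lower (background 14.3% and 15.1% of 20697 probes, median 0.59 against -0.07), and in knockdown cells 1, Cdkn1c, was higher and 7 were lower (13.8% and 14.8% of 21125 probes, median -1.02 against -0.02).

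Several imprinted genes that share a chromosomal domain with the 9 genes were also on the array, 28 of 37 listed. None of 11 tested was called at the ES stage, where 0.516% of all tested probes were called higher and 1.17% lower. In the SNM 5 of 15 were higher and 1 was lower in knockdown cells, beside 11% and 8.90% of all tested probes. The median of the 15 was 0.15 against -0.04 over all tested probes. Usp29, which shares its promoter region with Peg3, was at a mean of 6.31 in control and 9.18 in knockdown SNM cells and had the largest change, 2.87, next to the 2.06 of Peg3. Gtl2, the maternally expressed RNA of the Dlk1 domain, was at 7.94 and 9.28, a change of 1.34 beside the 0.63 of Dlk1. Osbpl5 (0.85) and Phlda2, which restrains placental growth (0.64), lie in the domain of Cdkn1c and went opposite to it. Phlda2 was near background there, at 4.98 in control SNM cells, detected on 2 of 3 arrays, and 5.62 in knockdown SNM cells. Dio3, the deiodinase at the far end of the Dlk1 domain, changed by 0.72. The gene called lower was Ddc, the decarboxylase that makes dopamine and neighbours Grb10 (-0.70).

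At the neuronal stage 3 of 18 neighbours were lower and 1 was higher in knockdown cells, beside 13.5% and 13.9% of all tested probes. The lower count is close to that share. Their median was -0.10 against 0.01 over all tested probes, also with genes undetected on one side at their bound. Usp29 was lower with Peg3 (-1.02, from 8.12 to 7.11). Dio3 and Zim1, the latter a zinc finger gene beside Peg3, were detected on no knockdown neuronal array, and were at least 2.28-fold and at least 1.4-fold lower. Gtl2 changed by -0.58, under 1.5-fold, where Dlk1 changed by -2.66. Ddc was higher by 1.71, opposite to Grb10, at means of 9.49 and 11.20. The neighbours of a gene thus did not all share its direction, and whether genes of a domain move together was not tested.

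**Figure D4:**
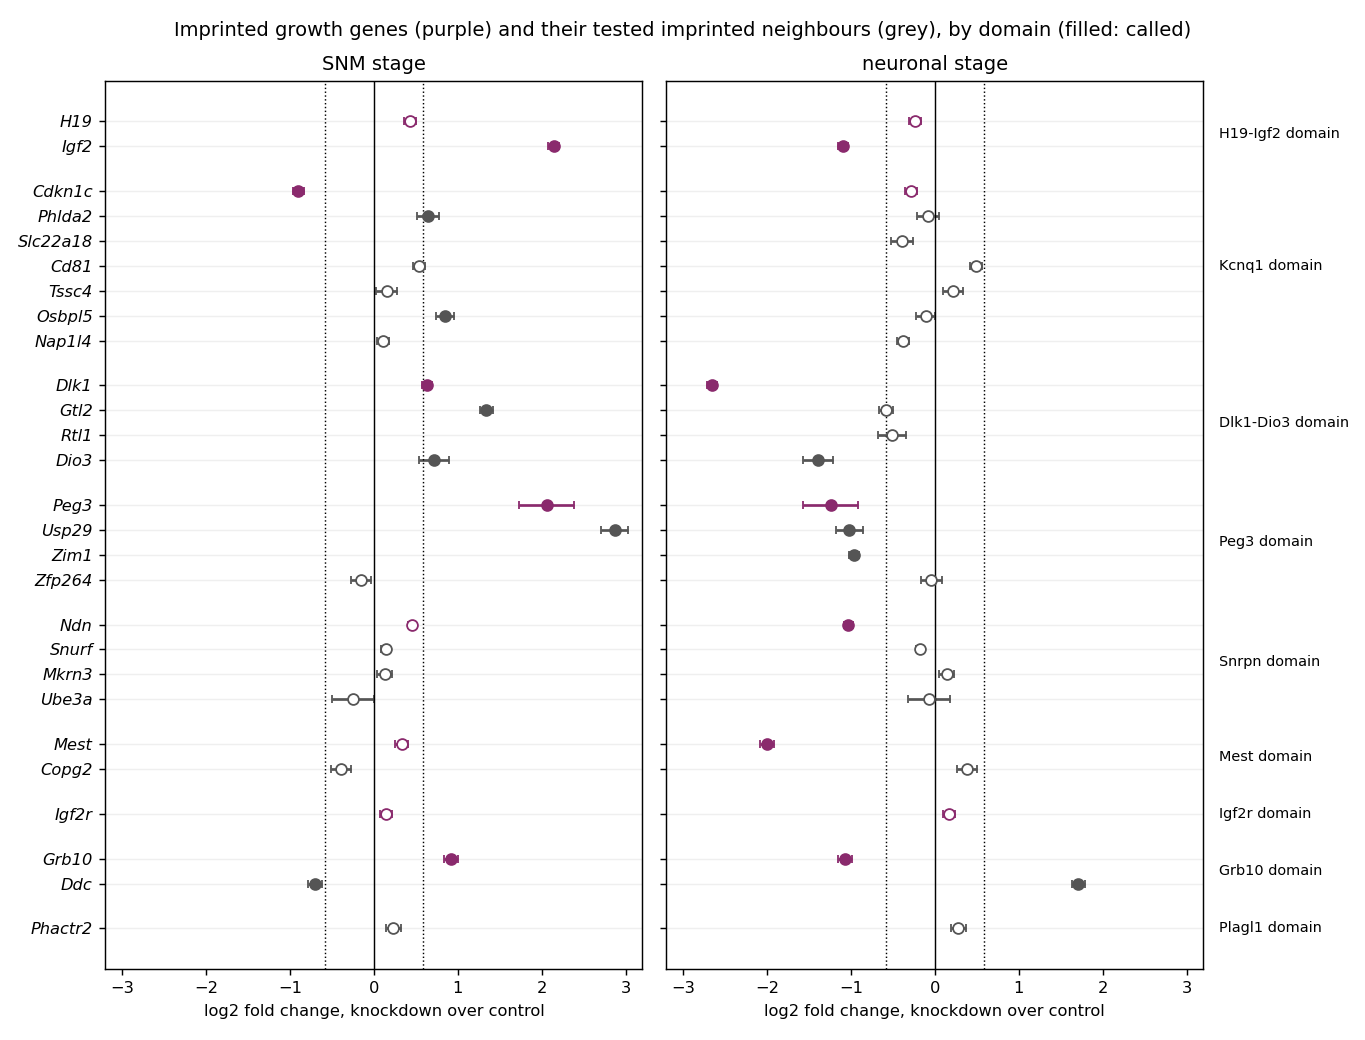
Change in log2 signal in HPRT knockdown against control cells for the 9 genes and their tested imprinted neighbours, grouped by chromosomal domain, at the SNM and neuronal stages, with the standard error (bars), called changes filled and dotted lines at 1.5-fold. Peg3 and Usp29 lie at 2.06 and 2.87 in the SNM and at -1.24 and -1.02 at the neuronal stage, while Grb10 and Ddc lie at -1.07 and 1.71 at the neuronal stage.

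The other genes of the insulin-like growth factor axis, 21 of 22 listed on the array, had medians close to those of all tested probes at the ES and SNM stages. In ES cells 1 of 14 tested was called, Igfbp5, an IGF binding protein, which was lower (-0.70), where 1.17% of all tested probes were. In the SNM Igfbp5 was higher (1.04), and 4 of 15 were lower, namely Igf2bp1 (-1.37), Igf2bp3 (-1.13) and Igf2bp2 (-0.88), which bind the mRNA of Igf2, and Pappa (-0.92), the protease that cleaves IGF binding proteins. Over all tested probes 11% were called higher and 8.90% lower there. The median of the 15 was -0.06 against -0.04 over all tested probes. At the neuronal stage 6 of 17 were lower and 2 were higher, beside 13.5% and 13.9% of all tested probes. Their median was -0.29 against 0.01 over all tested probes. Igf1, the second ligand of the receptor, was lower (-2.61), as were Igf2bp1 (-2.19), the binding protein Igfbp4 (-1.35) and Pappa (-1.05). Irs2, which carries the signal of the insulin and IGF receptors, was higher (1.53), as was Grb14, an adaptor related to Grb10 (0.77). The receptor Igf1r itself changed by -0.41, under 1.5-fold.

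Genes that keep imprints in place were lower or below the fold required. None of the 8 was called at the ES stage, where 0.516% of all tested probes were called higher and 1.17% lower. In the SNM 2 of the 8 were lower, beside 8.90% of all tested probes, with a median of -0.46 against -0.04. These were Uhrf1 (-0.85), which brings the maintenance methyltransferase to replicating DNA, and Dppa3 (-0.69), which protects methylation in the zygote. At the neuronal stage 4 of the 8 were lower, beside 13.5% of all tested probes, with a median of -0.61 against 0.01. They were Uhrf1 (-1.31), Dppa3 (-1.16), Trim28 (-0.70), the corepressor that ZFP57 recruits, and Dnmt1 (-0.65), the maintenance methyltransferase. Zfp57 changed by -0.49 and -0.54 and Ctcf by -0.13 and 0.14 at these stages, under 1.5-fold. Pluripotency markers, which like Dppa3 belong to stem cells, summed to 3625 to 3792 in control and 1009 to 1077 in knockdown neuronal cells.

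Among the 9 genes themselves the profiles over the 18 arrays were most alike for Dlk1 and Ndn (Pearson r = 0.99), H19 and Igf2 (0.97) and H19 and Ndn (0.97), and most opposed for Igf2r and Cdkn1c (-0.93). These values describe 6 RNA pools of 3 arrays each and mostly follow stage. The genes outside the list whose profile was most like that of H19 were Smarca2 (r = 0.999) and 2810410A03Rik (0.998), among 7285 genes compared. For Igf2 they were Ccdc3 (0.999) and Hist1h1c (0.998), for Dlk1 Ube2n (0.995) and Syt1 (0.994), and for Ndn Cugbp2 (0.998) and 3110018K01Rik (0.997). Igf2r was most like Aard (0.987) and Cdh1 (0.984), the adhesion molecule of epithelia and stem cells. Cdkn1c was closest to Accn2 (0.992), and Mest to Crmp1 (0.984) and Slc7a11 (0.983). Peg3 was closest to B230209E15Rik (0.98) and Rev3l (0.968), and Grb10 to 2310014G06Rik (0.968) and Nanos1 (0.96).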

How the data were processed

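The authors hybridised 18 Illumina MouseWG-6 v2 arrays, with RNA labelled and scanned as 3 arrays for each of 6 RNA pools. The deposited table gives, per probe and array, the signal intensity, the mean over beads without background subtraction or normalization, and the detection p-value. A second deposited table supplied probe annotation only, and its 72 per-array columns, named by chip position, were not used. Signals were corrected and quantile normalized with neqc (offset 16) of limma 3.58.1 in R 4.3.3. The 6 conditions entered one limma fit over the 18 arrays (lmFit, contrasts.fit, eBayes), with two-sided tests and Benjamini-Hochberg adjustment over all tested probes. Normalization, the limma fit and the calls were tried on simulated arrays with known changes, for the knockdown comparisons at the ES and SNM stages. The other steps were not tried on simulated data. The growth genes, gene lists, motifs and thresholds were chosen with earlier results of these data known. All growth genes are named, of each list the called genes with the largest change (up to 4 a direction), and for each growth gene the 2 most correlated genes among those detected in a condition with an SD of at least 0.5, of which 1 is not reported here. Bounds for undetected genes are set against the lowest detected signal. Array numbers were taken from the sample titles. The deviations of control and knockdown arrays of the same number correlated at 0.49, 0.11 and 0.49 in the SNM. The values were 0.61, 0.09 and 0.32 at the neuronal stage and -0.09, 0.03 and 0.10 at the ES stage. Arrays of some numbers thus varied together at the SNM and neuronal stages. Alternatives were quantile normalization and 75th percentile scaling without background correction, an offset of 50, no detection filter, a 2-fold minimum, the number as a block, only the arrays compared, the mean of a gene's probes, leaving out each array, and the methods' t-test. The number of arrays limits the precision.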

Additional observations from a re-analysis of the deposited data

Results flagged for a closer look

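The effect of the HPRT knockdown differed between stages in 14 tests of the difference itself (limma, adjusted p under 0.05 and at least 1.5-fold). Between the ES and SNM stages the log2 effect shifted by 2.25 for Igf2, 2.02 for Peg3, 1.2 for Dlk1, 0.68 for Grb10, 0.64 for H19 and -0.74 for Cdkn1c. Between the SNM and neuronal stages it shifted by -3.30 for Peg3, -3.29 for Dlk1, -3.23 for Igf2, -2.33 for Mest, -1.99 for Grb10, -1.48 for Ndn, -0.67 for H19 and 0.62 for Cdkn1c. Groups of 3 arrays are too small for a search for arrays that stand apart.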

How the results depend on the processing

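Of 1368 recomputed values of the 9 genes, 1311 kept their direction and call, 46 lost a call, 4 gained one and 7 changed sign, none of them a called value. The sign changes were all without 1 array. They were Igf2r at the ES stage (range without 1 array -0.01 to 0.07), the shift of Igf2r from SNM to neuronal stage (-0.01 to 0.10, 0 in another case) and Peg3 at the ES stage (-0.16 to 0.32, with -0.08 and -0.03 also below 0). With the array number as a replicate block, 81 of 81 values kept their call. Counts of the 9 genes called higher or lower that moved by over 1.5 times were the following. At 2-fold the SNM counts went from 4 and 1 to 2 and 0, those of control cells from SNM to neuronal stage from 5 and 1 to 3 and 0, those of the ES to SNM shift from 5 and 1 to 3 and 0, and the higher count of the SNM to neuronal shift from 1 to 0. The lower count of control cells from ES to SNM went from 2 to 0 at 2-fold, with quantile normalization alone and with 75th percentile scaling, and to 1 with an offset of 50 or the mean of all probes. With 75th percentile scaling the ES to SNM shift had 3 genes higher. Without 1 array, the lower count was 0 to 1 at the ES stage and in knockdown cells from ES to SNM, and 1 to 2 in control cells over that step, and the higher count of the SNM to neuronal shift was 0 to 1. Smaller moves included the lower count of knockdown cells from SNM to neuronal stage (7 to 5 at 2-fold, without Igf2 and Igf2r). The SNM higher count went from 4 to 3, without Dlk1 at 75th percentile scaling and without Grb10 in the mean of all probes. The neuronal lower count went from 6 to 5, without Grb10 in that mean and without Peg3 in the methods' t-test after Benjamini-Hochberg adjustment. Without 1 array, 4 to 5 genes were higher in control and 6 to 7 lower in knockdown cells from SNM to neuronal stage, and 6 to 7 higher in control cells from ES to SNM. The cause of these moves was not tested, beyond the stricter fold itself. Over all probes, calls ranged from 56 to 320 (310 as reported) at the ES stage, from 2326 to 4223 (4127) in the SNM and from 3690 to 5774 (5732) at the neuronal stage, lowest for 75th percentile scaling at the ES stage and for quantile normalization alone at the others. The latter also gave the lowest counts for the stage steps (7015 against 10167, 9029 against 12292, 3781 against 6088 and 3820 against 6051) and for the shifts (2564 against 4721 and 4025 against 6331). Signals near the brightest of the array (H19, Igf2) and near background (Plagl1) limit what the arrays could resolve.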

Other observations

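Of 23 imprinted genes outside the domains described above, none of 12 tested was called at the ES stage in HPRT knockdown cells. Over all tested probes 0.516% were called higher and 1.17% lower there. In the SNM 4 of 16 were higher and 1 was lower, beside 11% and 8.90% of all tested probes. The higher ones were Nap1l5 (log2 change 1.32), Peg13 (0.89), Asb4 (0.64) and Dcn (0.61), and Commd1 was lower (-0.75). The median of the 16 was 0.34 against -0.04 over all tested probes. At the neuronal stage 7 of 15 were lower and 2 were higher, beside 13.5% and 13.9% of all tested probes, with a median of -0.27 against 0.01. The neuronatin gene Nnat, a regulator of calcium handling in the endoplasmic reticulum, was lower by 2.03, Inpp5f by 2.00, the amino acid transporter Slc38a4 by 1.52 and the retrotransposon-derived Peg10 by 1.38 on the log2 scale. Gatm, which makes the precursor of creatine, was higher (3.32), as was the adaptor Gab1 (0.81). Dcn, a matrix proteoglycan, is also one of the 12 fibroblast markers, which summed to 24675 to 28168 in control and 13596 to 16946 in knockdown neuronal cells.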
